A study of Mus musculus with 57 samples.

Results

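The genes examined were 44 genes of the cell division cycle, measured among 16475 genes on microarrays of whole kidneys from lupus-prone mice. They were taken from 45 gene symbols, by matching each symbol to the tables of all 3 strains. The remaining symbol, Cdk1, had no row of its own. Its gene ID, 12534, stood in the tables under the old symbol Cdc2a, and its values are given separately and left out of all counts. In most adult kidney cells the division cycle is at rest. Entry into the cycle begins when cyclin D and then cyclin E kinases release E2F factors, which switch on genes for DNA replication. Later the cyclin A and cyclin B kinases drive mitosis, the anaphase-promoting complex with Cdc20 ends it, and inhibitors such as p21 (Cdkn1a) hold cells back.

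The 57 arrays fell into 8 groups. NZB/W mice are a cross of the NZB and NZW strains. They gave 8 kidneys at 16 weeks and 11 at 23 weeks, all labelled prenephritic and not proteinuric. A further 6, taken at 23 weeks with onset of proteinuria, were also labelled prenephritic. Another 10 came from nephritic, proteinuric mice at 36 weeks. For the 36-week group 1 label reads prenephritic, and the sample descriptions, which read nephritic, were followed. The NZM2410 strain, derived from the same cross, gave 5 prenephritic and 5 nephritic kidneys, and NZW/BXSB mice gave 6 of each. No treatment was labelled in any group, and ages in weeks were given for NZB/W only. Titles of the NZM2410 arrays read young for the prenephritic and sick for the nephritic group. Age and disease therefore cannot be told apart in that strain. Nothing says which arrays came from separate mice, so p-values measure the spread between arrays, which may in part be technical. Every value is a log2 expression level. Because each strain had its own table, strains were compared only through changes within a table. In whole tissue, more cells of a dividing type and more RNA per cell cannot be told apart.

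Array medians lay between 6.97 and 7.06 in the NZB/W table, 7.12 and 7.20 in NZM2410, and 7.68 and 7.75 in NZW/BXSB, and no pair of arrays was identical. The mean level of 12 proximal tubule genes lay between 10.5 and 12.73 in every group, and that of 6 genes of other kidney segments between 10.09 and 11.56, as befits kidney. Adrenal cortex genes varied widely between arrays of 1 group, with means from 5.26 to 11.02 at 23 weeks without proteinuria, and none of the 6 was called in any comparison. Most cell cycle genes gave weak signal, which also depends on the probes. In NZB/W 32 of the 44 lay below the median level of all genes, in NZM2410 27, and in NZW/BXSB 30. The authors' detection flag marked 38, 38 and 43 of them as expressed. A gene was called when its adjusted p in limma, over all genes of the table, was below 0.05.

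Promoters of the genes with the largest rises are shown because several members share short motifs that cell cycle factors are known to bind. Of the 44 genes, 34 had a promoter in the RefSeq table of the GRCm38.p6 build, and the 250 bases before the annotated start were searched on both strands. The CCAAT box, bound by the factor NF-Y, was found in 24 of 34 (70.6%) against 39.7% of 12800 genes on the array. The cell cycle homology region (TTTGAA or TTCGAA), bound by the DREAM and B-Myb complexes, was found in 12 (35.3%) against 15.6%. An E2F core (TTCCCGC or TTGGCGC or TTCGCGC or TTGCCGC) was found in 8 (23.5%) against 13.7%. CCAAT and the cell cycle homology region stood together in 11 promoters (32.4%) against 5.7%. None of these 3 motifs was found in 9 (26.5%), Cdkn1a among them, against 44.8%. A paired p53 core (2 copies of CATG with any 6 bases between them), added after the Cdkn1a sequence had been seen, was found at 1 of the members, Cdkn1a (2.9%), against 0.4%. The paired p53 core reads the same on both strands, and the E2F core GCGCCAA on the reverse strand shares bases with CCAAT where a T follows. Such matches describe the letters only and are no evidence of binding. Capitals mark the motifs, the strand shown is that of the gene, and each line gives the 250 bases before the start. Cdc20, Rrm2 and Cdkn1a are shown as the genes with the largest rise in 1 or more comparisons, and Mki67 and Ccnb2 were added after values had been seen. Cdkn1a has 2 annotated starts, and the paired p53 core lies 48 bases before the first of them. The regions are chr4:118437344-118437593 (minus strand) for Cdc20, chr9:70421555-70421804 (minus) for Ccnb2, chr7:135716380-135716629 (minus) for Mki67 and chr12:24708004-24708253 (plus) for Rrm2. For Cdkn1a they are chr17:29090729-29090978 and chr17:29093519-29093768 (both plus).
Cdc20: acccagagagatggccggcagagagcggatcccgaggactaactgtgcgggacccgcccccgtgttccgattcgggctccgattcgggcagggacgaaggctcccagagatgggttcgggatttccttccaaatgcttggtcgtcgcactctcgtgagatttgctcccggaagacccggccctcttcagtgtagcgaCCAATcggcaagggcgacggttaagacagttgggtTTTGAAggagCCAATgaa
Ccnb2: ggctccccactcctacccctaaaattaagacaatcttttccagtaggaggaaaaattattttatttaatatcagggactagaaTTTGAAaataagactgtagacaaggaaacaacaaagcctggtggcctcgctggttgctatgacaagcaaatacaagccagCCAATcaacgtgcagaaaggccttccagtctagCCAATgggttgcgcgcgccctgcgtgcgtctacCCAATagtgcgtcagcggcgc
Mki67: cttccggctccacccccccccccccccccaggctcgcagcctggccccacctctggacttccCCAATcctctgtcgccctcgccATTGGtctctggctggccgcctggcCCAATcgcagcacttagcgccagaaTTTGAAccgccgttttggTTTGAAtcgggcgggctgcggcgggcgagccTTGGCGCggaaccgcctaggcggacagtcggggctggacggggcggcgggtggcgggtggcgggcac
Rrm2: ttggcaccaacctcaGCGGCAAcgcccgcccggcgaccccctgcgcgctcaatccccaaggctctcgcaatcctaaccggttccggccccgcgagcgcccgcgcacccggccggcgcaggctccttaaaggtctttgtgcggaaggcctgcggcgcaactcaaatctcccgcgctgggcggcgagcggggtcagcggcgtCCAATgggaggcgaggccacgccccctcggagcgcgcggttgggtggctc
Cdkn1a (first start): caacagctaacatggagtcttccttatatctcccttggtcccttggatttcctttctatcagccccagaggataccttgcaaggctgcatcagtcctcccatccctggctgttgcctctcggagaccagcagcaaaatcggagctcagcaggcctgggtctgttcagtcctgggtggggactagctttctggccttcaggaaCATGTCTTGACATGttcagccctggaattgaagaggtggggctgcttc
Cdkn1a (second start): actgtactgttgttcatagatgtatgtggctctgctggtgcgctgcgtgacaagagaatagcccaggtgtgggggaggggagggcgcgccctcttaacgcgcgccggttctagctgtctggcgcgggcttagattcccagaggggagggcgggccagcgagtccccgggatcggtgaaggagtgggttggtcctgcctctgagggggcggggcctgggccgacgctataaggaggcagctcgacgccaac

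Before proteinuria the cell cycle genes varied little between NZB/W kidneys, and in the diseased groups of all 3 strains they were higher. Onset of proteinuria is counted among the diseased groups, although its descriptions read prenephritic. The mean level over the 44 genes was 6.03 ± 0.04 (SD, n = 8) at 16 weeks and 5.99 ± 0.04 (n = 11) at 23 weeks. With onset of proteinuria at the same age it was 6.45 ± 0.30 (n = 6), and at 36 weeks 6.37 ± 0.26 (n = 10). It went from 6.55 ± 0.06 to 6.90 ± 0.12 in NZM2410 (n = 5 each) and from 6.74 ± 0.17 to 7.60 ± 0.50 in NZW/BXSB (n = 6 each). The diseased groups were higher and also more spread out than the groups before disease. In several groups 1 array held the highest or the lowest level of many genes. At onset, replicate 5 had the highest level of 33 of the 44 genes and replicate 1 the lowest of 27. At 36 weeks, replicate 5 was highest for 31 genes and replicate 3 lowest for 21. Replicate 5 of the nephritic NZW/BXSB kidneys was highest for 39 genes, and replicate 4 of the nephritic NZM2410 kidneys was lowest for 26. Before disease, replicate 3 in NZW/BXSB was lowest for 24 genes and replicate 5 in NZM2410 highest for 21. The authors' flag marked Ccne2, Tyms, Aurkb, Cenpe and Tpx2 as not expressed in both the NZB/W and the NZM2410 table, Kif20a in NZB/W, Kif11 in NZM2410 and Cenpe in NZW/BXSB. Changes of these genes in those tables rest on signal that the flag does not set above background.

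**Figure D1:**
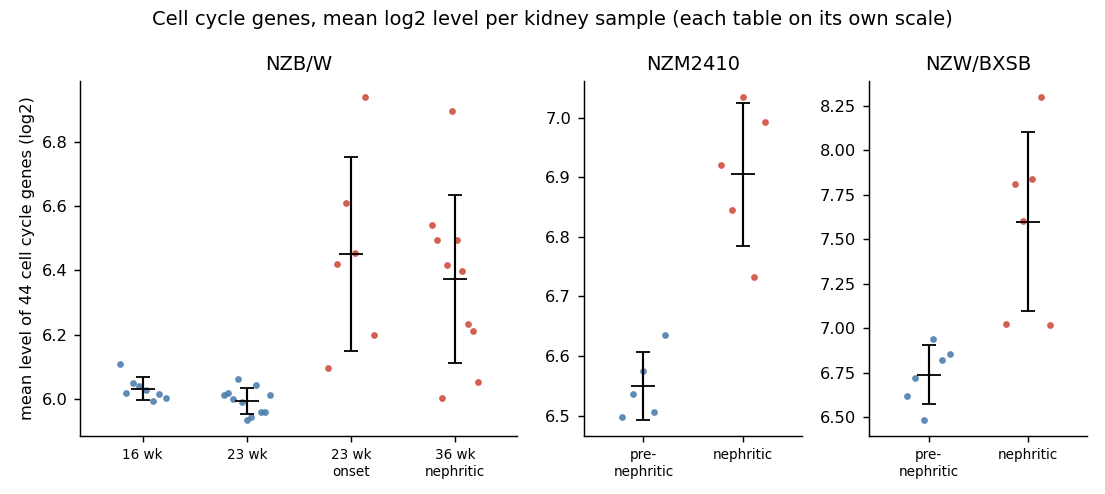
Mean log2 level over the 44 cell cycle genes (vertical axis) in each array, by group (horizontal axis), with 1 point per array and the group mean and SD. The 16-week and 23-week non-proteinuric arrays form tight clusters near 6.0, the onset arrays spread from 6.09 to 6.94, and the nephritic NZW/BXSB arrays from 7.02 to 8.30. Levels are to be read within a strain.

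The earliest comparison set kidneys at onset of proteinuria against kidneys of the same age without it. Of the 44 genes 21 rose and none fell, where 1.71% of all genes were called higher and 0.388% lower. The change was above 0 for 43 of 44, with a median of 0.39 on the log2 scale against -0.02 over all genes. For 6 genes (Ccne2, Mcm4, Rrm2, Cdc20, Prc1 and Birc5) every onset array lay above every non-proteinuric array, a pattern seen for 0.546% of all genes. Replicate 5 bore heavily on these calls. Without it 4 genes stayed called (Cdc20, Cdt1, Mcm4 and Rrm2), without replicate 3 there were 9, and without replicate 4 there were 12. Calls over all genes dropped too, from 345 to 39, 173 and 186 without replicates 5, 3 and 4. In replicate 5 the 3' and 5' probe sets of Gapdh differed by 0.463, a sign of RNA breakdown. The group mean was 0.108 ± 0.180 and the non-proteinuric mean -0.008 ± 0.032. With that difference as a covariate 9 members were called, and with the signal of the hybridization controls, 10.27 ± 0.22 against 9.57 ± 0.18, as a covariate there were 13. Over all genes these 2 fits called 189 and 224. Replicate 5 also stood apart in kidney markers. The mean level of 12 proximal tubule genes was 10.74 in it, below the other 5 onset arrays, whose highest value was 12.29, and that of 15 genes of tubular injury was 9.56 against 8.09 to 8.51. Their part in the result was not tested further. Within the 1 code in the sample titles that held both groups, the mean of 2 onset arrays lay above the mean of 2 non-proteinuric arrays for 43 of 44 genes, with a median of 0.42, where 49.7% of all genes lay higher.

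At 36 weeks, against 16 weeks, 21 genes again rose and none fell, but here 11% of all genes were called higher and 15.3% lower. The median change was 0.28 against -0.01 over all genes, and 41 of 44 changes were above 0. Every 36-week array lay above every 16-week array for 3 genes, Mcm3, Rrm2 and Cdc20, against 1.38% of all genes. The Gapdh difference was 0.204 ± 0.192 at 36 weeks and 0.015 ± 0.096 at 16 weeks. With it as a covariate 6 members were called, namely Birc5, Cdc20, Cdkn1a, Mcm3, Mcm7 and Rrm2, and with title codes as a random block there were 11. Over all genes these fits called 2527 and 2575, against 4338 without covariate or block. The covariate differed between the groups, so its part and that of disease cannot be told apart. The groups also differed in age, 36 against 16 weeks, so age and disease cannot be told apart either.

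No member passed the test on either side of onset. Between 16 and 23 weeks without proteinuria 0 members were called, 0 had an unadjusted p below 0.05 in limma, and limma with array weights called 3, all lower. Over all 16475 genes limma without weights called 3 (0.0182%), and 963 had such an unadjusted p. With array weights it called 3697 of all genes. The median change was -0.02, and for Cdc20 it was -0.16 with a 95% interval of -0.59 to 0.27. Between onset and 36 weeks 0 members were called, against 2.32% of all genes, with 3 at an unadjusted p below 0.05 (Cdt1, Gmnn and Kif20a, all lower at 36 weeks) and 2 called with array weights. The median was -0.06, and for Mki67 the difference was 0.05 with an interval of -0.58 to 0.68. Of the 44 group means, 33 were highest at onset and 10 at 36 weeks, while 27 were lowest at 23 weeks without proteinuria and 15 at 16 weeks. The onset means hold replicate 5, the highest onset array for 33 of the 44 genes. With 1 array left out at a time, the median change from onset to 36 weeks ranged from -0.12 to 0.02. A test of the 36-week change minus the onset change called 0 members in limma, where 1.27% of all genes were called. Without onset replicate 5, without 16-week replicate 2, or without 36-week replicate 1 it called 1. These changes share no arrays.

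In NZM2410 nephritis 26 genes rose and 3 fell, where 11.4% of all genes were called higher and 13.8% lower. In NZW/BXSB nephritis 34 rose and none fell, where 11.4% were called higher and 8.73% lower. The median change was 0.34 in NZM2410 and 0.83 in NZW/BXSB, against -0.01 and -0.03 over all genes. Of the rises in NZW/BXSB 16 were by at least 2-fold, against 1 in NZM2410 and, in NZB/W, 4 at onset and 2 at 36 weeks. The share of all genes that rose by at least 2-fold was not counted. In NZM2410 the groups lay apart with nephritic arrays higher for 20 genes (7.81% of all genes) and lower for 2 (9.97%), Ccnd1 and Gmnn. In NZW/BXSB they lay apart for 13 genes, all higher in nephritis (5.03%). In NZW/BXSB the Gapdh difference was -0.121 ± 0.014 before and -0.081 ± 0.050 in nephritis, and with it as a covariate 19 members were called. Within the title codes that held both NZW/BXSB groups, with 1 array of each, all 44 genes were higher in the nephritic array of the pair, with medians of 1.43 and 0.93. Over all genes 52.0% and 45.2% were higher in those pairs. The pair with the median of 1.43 held nephritic replicate 5, the highest array for 39 genes, and the other pair held replicate 2. Nephritic replicates 1 and 6, with the lowest means over the members (7.03 and 7.02), were in neither pair.

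Called in the same direction in all 4 comparisons were 11 genes: Mcm4, Mcm5, Rrm2, Ccna2, Ccnb2, Mad2l1, Cdc20, Nusap1, Prc1, Birc5 and Mki67. A further 13 were called higher in 3 of them and 8 in 2. Rrm1, Tk1 and Tpx2 were called higher in NZW/BXSB alone of the 4, and 9 genes (Ccnd1, Ccne1, Cdk2, E2f1, Gmnn, Tyms, Foxm1, Plk1 and Cenpe) in none. How many of all genes were called higher in as many comparisons was not counted, so these numbers have no background share. Cdk1 itself, the kinase partner of cyclins A and B, matched by its gene ID, rose in all 4 comparisons. Its changes were 0.86 ± 0.18 (SE) at onset (adjusted p = 0.0084) and 0.74 ± 0.17 at 36 weeks (0.00144). They were 0.71 ± 0.11 in NZM2410 (0.000702) and 1.71 ± 0.32 in NZW/BXSB (0.00317). The alternative fits covered the 44 genes only, so the Cdk1 calls were not tried with covariates, blocks or arrays left out. Its highest onset array was replicate 5 (7.99).

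**Figure D2:**
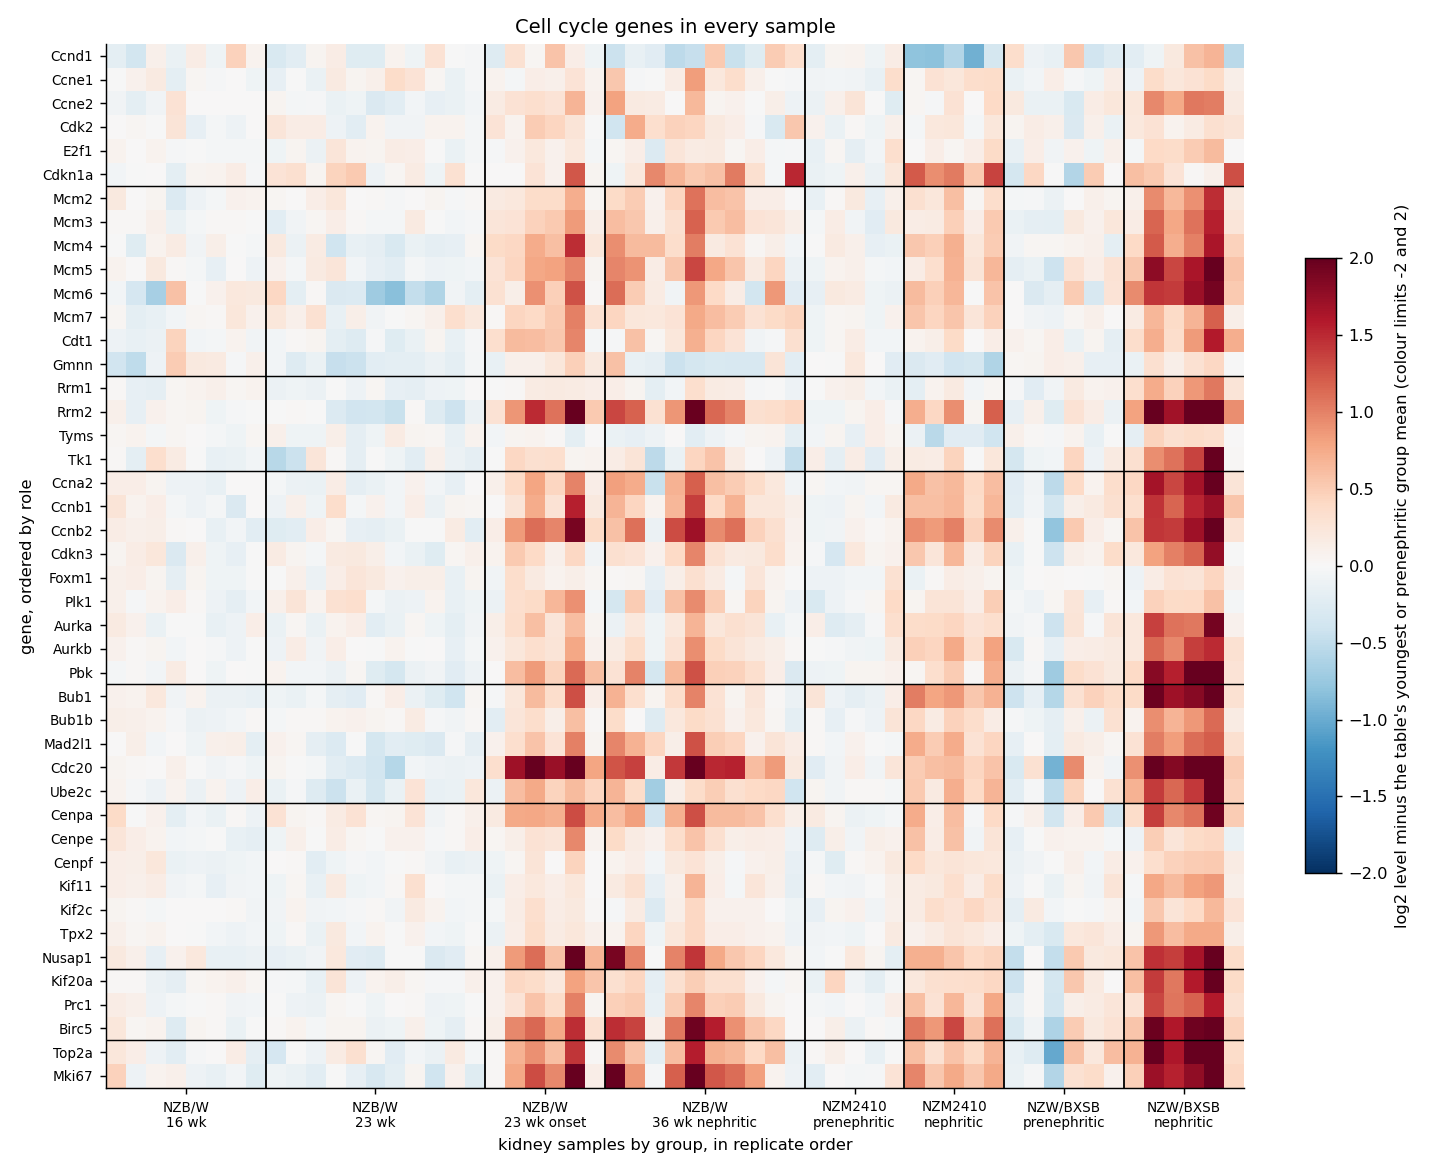
Log2 level of each of the 44 genes (rows, ordered by role) in each array (columns, by group) minus the mean of that gene in the reference group of its strain (16 weeks for NZB/W, prenephritic for the other strains). Colours stop at the limits of the scale. Rows from licensing to chromosome structure turn warm in the diseased groups, most of all in NZW/BXSB, while Ccnd1 and Gmnn are cool in nephritic NZM2410.

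Few genes of cycle entry were called. Of 6, 1 rose at onset, 1 at 36 weeks and 1 in NZW/BXSB, and in NZM2410 1 rose and 1 fell. Cyclin E2 (Ccne2), which with Cdk2 starts DNA replication, ranged from 3.86 through a median of 4.06 to 4.20 at 23 weeks without proteinuria and from 4.23 through 4.42 to 4.82 at onset. These groups did not overlap, and the change was 0.40 ± 0.10 (adjusted p = 0.022), but the gene was flagged as not expressed in this table. The call was lost in 5 of 26 alternatives, among them without onset replicate 3 or 5 and with the hybridization controls as a covariate (adjusted p = 0.286). At 36 weeks its change was 0.20 ± 0.09 and not called, while in NZW/BXSB it went from 4.29 to 4.83 (median 4.60) to 4.78 to 5.65 (median 5.45), a rise of 0.70 ± 0.17 (adjusted p = 0.0107). Ccne1, Cdk2 and E2f1 were called in no comparison, with changes between 0.05 and 0.31.

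Cyclin D1 (Ccnd1, gene ID 12443), which couples growth signals to the cycle, was called in 1 strain. In NZM2410 its levels were 10.76, 10.87, 11.01, 11.02 and 11.10 before nephritis and 9.99, 10.13, 10.15, 10.37 and 10.60 in nephritis. All 5 nephritic arrays lay below all 5 prenephritic arrays, a fall by 0.70 ± 0.11 (adjusted p = 0.00102) that held in all 19 alternatives. In NZB/W the medians were 10.30 at 16 weeks, 10.28 at 23 weeks, 10.40 at onset and 10.08 at 36 weeks, and the groups overlapped. In NZW/BXSB they were 10.59 before and 10.77 in nephritis. The differences between NZM2410 and the other strains were 0.60 ± 0.18 for NZB/W minus NZM2410 (adjusted p = 0.0655) and -0.81 ± 0.24 for NZM2410 minus NZW/BXSB (0.0557), so neither passed.

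The inhibitor p21 (Cdkn1a, gene ID 12575) was called in NZM2410 and at 36 weeks. It was the largest rise of the 44 genes in NZM2410, from 6.61, 6.62, 6.65, 6.83 and 6.97 to 7.26, 7.66, 7.77, 7.96 and 8.09. No nephritic array overlapped a prenephritic one, and the change was 1.01 ± 0.14 (adjusted p = 0.000511). At 36 weeks it ranged from 6.83 to 8.43 (median 7.47) against 6.72 to 7.06 (median 6.92) at 16 weeks, a rise of 0.57 ± 0.16 (adjusted p = 0.00818) that was lost with title codes as a random block (0.062). At onset 5 arrays stayed within the range of the non-proteinuric group and replicate 5 stood alone at 8.16, with a change of 0.10 ± 0.17 (adjusted p = 0.759). In NZW/BXSB, where most other members rose furthest, Cdkn1a went from a median of 8.40 to 8.80 and was not called (0.47 ± 0.22, adjusted p = 0.159). Array by array it followed most other genes in some diseased groups and not in others. At onset its highest array, replicate 5, was also the highest for Mki67, and in nephritic NZM2410 its lowest array, replicate 4, was the lowest for 26 members. At 36 weeks its highest array was replicate 10, which held the lowest level of 12 members, Mki67 among them. In nephritic NZW/BXSB its highest array was replicate 6, the lowest for 20 members, Cdc20 and Mki67 among them.

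**Figure D3:**
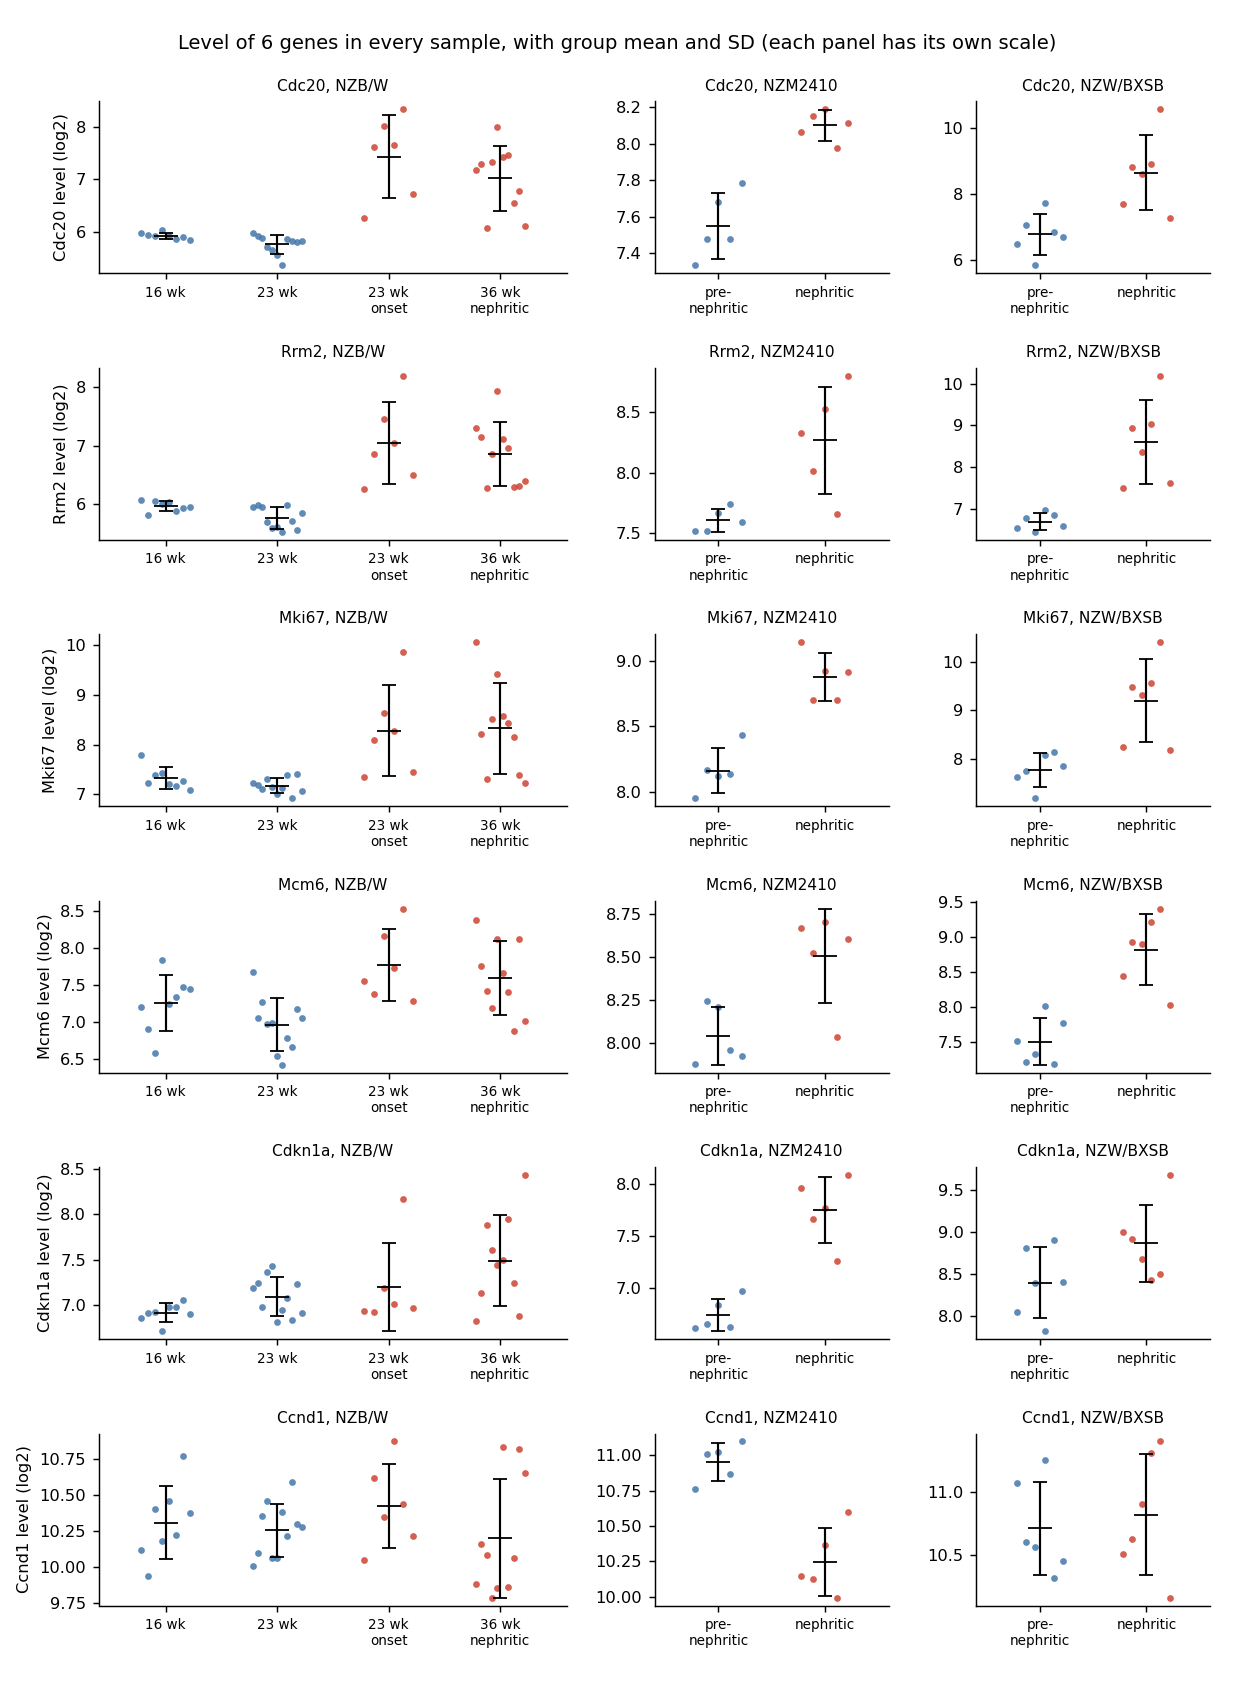
Log2 level of 6 genes in each array by group, with group mean and SD and a separate vertical scale in each panel. Cdc20, Rrm2 and Mki67 rise in all diseased groups. The array with the highest Cdkn1a is also highest for Mki67 at onset but not in the nephritic groups. Ccnd1 is lower in nephritic NZM2410, its only call, and its 36-week mean (10.20) also lies below the 16-week mean (10.31), not called.

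Genes that license replication origins rose widely. Mcm2 to Mcm7 encode the ring-shaped helicase that is loaded on origins, Cdt1 loads it, and geminin (Gmnn) blocks Cdt1 after replication has begun. Of these 8 genes, 5 rose at onset, 5 at 36 weeks and 7 in NZW/BXSB, and in NZM2410 4 rose and 1 fell. Mcm5 ranged from 5.26 to 5.71 (median 5.42) without proteinuria and from 5.52 to 6.44 (median 6.07) at onset, a rise of 0.57 ± 0.14 (adjusted p = 0.0277). Onset and control arrays overlapped, and the call was lost without onset replicate 3, 4 or 5 or without 23-week non-proteinuric replicate 7. At 36 weeks Mcm5 rose by 0.57 ± 0.13 (adjusted p = 0.00169), and in NZM2410 by 0.42 ± 0.11 (0.0131). In NZW/BXSB it went from 6.04 to 6.74 (median 6.45) to 6.99 to 8.75 (median 7.93), without overlap, a rise of 1.36 ± 0.27 (0.00431).

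Mcm6 (gene ID 17219) was the helicase gene with a called difference between strains, that of NZB/W against NZW/BXSB. At 36 weeks it ranged from 6.88 to 8.37 (median 7.54) and at 16 weeks from 6.59 to 7.84 (median 7.29), with a change of 0.34 ± 0.19 that was not called. In NZW/BXSB it ranged from 7.18 to 8.01 (median 7.42) before and from 8.03 to 9.41 (median 8.92) in nephritis, without overlap, and rose by 1.32 ± 0.22 (adjusted p = 0.00163). The difference of these changes was -0.98 ± 0.29 (adjusted p = 0.0411), a call that 17 of 36 alternatives did not keep. In NZM2410 levels were 7.88, 7.92, 7.96, 8.21 and 8.24 before and 8.03, 8.53, 8.60, 8.67 and 8.71 in nephritis, with 1 nephritic array inside the prenephritic range. That rise was 0.47 ± 0.13 (adjusted p = 0.019) and was lost without prenephritic replicate 1 or nephritic replicate 3. At onset Mcm6 rose by 0.81 ± 0.21 (0.0314), a call kept in 17 of 27 alternatives and lost, among others, without onset replicate 3, 4 or 5.

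Mcm4 rose in all 4 comparisons, by 0.75 ± 0.14 at onset (adjusted p = 0.00627), 0.41 ± 0.13 at 36 weeks (0.0203, lost without 36-week replicate 5), 0.49 ± 0.10 in NZM2410 (0.00328) and 0.91 ± 0.18 in NZW/BXSB (0.00381). Cdt1 rose at onset, by 0.60 ± 0.11 (0.00608), and in NZW/BXSB, by 0.77 ± 0.17 (0.00798). Its inhibitor geminin was called lower in 1 strain, NZM2410, where Cdt1 was not called. Gmnn fell in NZM2410 from 8.90, 9.12, 9.12, 9.13 and 9.32 to 8.51, 8.73, 8.77, 8.83 and 8.89, by 0.37 ± 0.09 (adjusted p = 0.0114), without overlap. In the other 3 comparisons it was not called. Its mean was lower at 36 than at 16 weeks (7.49 against 7.63). It was higher at onset than without proteinuria (7.79 against 7.42) and in NZW/BXSB nephritis than before (9.16 against 8.99). The change of Gmnn in NZM2410 minus that in NZW/BXSB was -0.53 ± 0.13 (0.0194, lost with title codes as a random block, 0.0674).

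Among the 4 genes of nucleotide supply, 1 rose at onset, 1 at 36 weeks, 1 in NZM2410 and 3 in NZW/BXSB, and 1 fell in NZM2410. Ribonucleotide reductase makes deoxynucleotides, and Rrm2 (gene ID 20135) encodes its small, cycle-dependent subunit. Rrm2 ranged from 5.52 to 5.99 (median 5.70) without proteinuria and from 6.26 to 8.20 (median 6.95) at onset, and from 5.81 to 6.07 (median 5.98) at 16 weeks and 6.27 to 7.94 (median 6.91) at 36 weeks. Neither pair of groups overlapped. The rises were 1.29 ± 0.21 (adjusted p = 0.0011) and 0.89 ± 0.19 (0.000822), and both held in every alternative tried. In NZM2410 levels of 7.51, 7.52, 7.59, 7.66 and 7.74 became 7.66, 8.02, 8.33, 8.53 and 8.81, a rise of 0.66 ± 0.17 (0.015), with the lowest nephritic array inside the prenephritic range. The rise in NZW/BXSB, from 6.44 to 6.98 (median 6.68) to 7.49 to 10.19 (median 8.65), was the largest of all members there at 1.91 ± 0.37 (0.00358).

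The large subunit Rrm1 stayed near its level in NZB/W at 36 weeks (0.05 ± 0.05) and in NZM2410 (0.01 ± 0.08) and rose in NZW/BXSB by 0.62 ± 0.13 (adjusted p = 0.00546). The change in NZW/BXSB was larger than that in NZB/W by a difference of -0.58 ± 0.14 (NZB/W minus NZW/BXSB, 0.0242, lost without NZW/BXSB prenephritic replicate 2 or 3 or nephritic replicate 2 or 4 and, at 0.0808, with title codes as a random block) and than that in NZM2410 by one of -0.61 ± 0.15 (0.0224, lost with that block, 0.0779). Thymidine kinase (Tk1), the salvage enzyme for thymidine, was called in NZW/BXSB alone. It ranged there from 6.81 to 7.59 (median 7.09) before and from 7.19 to 9.33 (median 8.18) in nephritis, with overlap, and rose by 0.98 ± 0.29 (0.0305), a call lost in 7 of 21 alternatives, 6 of them single arrays left out. Thymidylate synthase (Tyms) had changes of -0.01 at onset and -0.08 at 36 weeks, neither called. It fell in NZM2410 by 0.30 ± 0.09 (0.0289), a call lost in 7 of 18 alternatives, 5 of them single arrays left out, and the gene was flagged as not expressed in that table. In NZW/BXSB its change was 0.22 ± 0.10, not called, and the difference between those strains was -0.52 ± 0.13 (0.0242, lost with title codes as a random block, 0.0891).

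The cyclins and kinases of late cycle rose in 4 of 9 cases at onset, in 6 both at 36 weeks and in NZM2410, and in 7 in NZW/BXSB. Cyclin B2 (Ccnb2, gene ID 12442), a partner of Cdk1, ranged from 5.48 to 5.89 (median 5.59) without proteinuria and from 5.85 to 7.62 (median 6.64) at onset. The lowest onset array lay just inside the control range and the others above it, and the rise was 0.97 ± 0.20 (adjusted p = 0.00761), lost without onset replicate 5 (0.0602). It rose by 0.75 ± 0.19 at 36 weeks (0.00286), from a median of 5.74 to 6.49. In NZM2410 levels of 6.43, 6.45, 6.55, 6.59 and 6.61 became 6.99, 7.37, 7.45, 7.46 and 7.54, without overlap, a rise of 0.84 ± 0.10 (0.000224). In NZW/BXSB the median went from 6.69 to 8.04 and the rise was 1.40 ± 0.38 (0.0198). Its promoter above holds 3 CCAAT boxes and a cell cycle homology region.

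Pbk, a mitotic kinase of proliferating cells, rose at onset by 0.72 ± 0.16 (adjusted p = 0.0109), from a median of 5.60 (5.35 to 5.78) to 6.31 (5.71 to 6.84), and the call was lost without onset replicate 5. At 36 weeks its rise of 0.40 ± 0.15 (0.0415) was kept in 11 of 28 alternatives. In NZM2410 it was not called (0.32 ± 0.13), and in NZW/BXSB it rose by 1.48 ± 0.38 (0.0155), from a median of 6.12 (5.33 to 6.41) to 7.73 (6.31 to 8.87). Cyclin A2 (Ccna2), which acts in replication and early mitosis, rose in all 4 comparisons, by 0.46 to 1.27, though its onset call was kept in 8 of 27 alternatives and lost without onset replicate 5 (0.215). Cyclin B1 (Ccnb1) rose in all but onset. Aurora A (Aurka), a kinase of the spindle poles, rose at onset by 0.39 ± 0.09 (0.0194, lost without onset replicate 3 or 5) but was not called at 36 weeks (0.15 ± 0.09). Aurora B (Aurkb), of the chromosomal passenger complex, was called at 36 weeks (0.26 ± 0.09, 0.0256, lost without 16-week replicate 7 or 36-week replicate 5, and flagged as not expressed) and not at onset (0.29 ± 0.09). The test of the 36-week change minus the onset change called neither gene. The phosphatase Cdkn3 rose at 36 weeks, in NZM2410 (kept in 12 of 19 alternatives) and in NZW/BXSB (12 of 21). Foxm1, the transcription factor of mitotic genes, and the kinase Plk1 were called nowhere, with changes from 0.04 to 0.30.

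Of the 5 genes of the spindle checkpoint and the anaphase-promoting complex, 4 rose at onset, 2 at 36 weeks and all 5 in NZM2410 and in NZW/BXSB. Cdc20 (gene ID 107995), the activator that directs the complex to cyclin B and securin, made the largest rise of all members in both NZB/W comparisons. It ranged from 5.35 to 5.98 (median 5.82) without proteinuria and from 6.25 to 8.34 (median 7.64) at onset, and from 5.83 to 6.02 (median 5.92) at 16 weeks and 6.06 to 8.01 (median 7.23) at 36 weeks. Neither pair overlapped. The rises were 1.68 ± 0.23 (adjusted p = 0.000116) and 1.10 ± 0.22 (0.000309), and both were kept in every alternative. In NZM2410 levels of 7.33, 7.48, 7.48, 7.68 and 7.79 became 7.98, 8.07, 8.11, 8.16 and 8.19, without overlap, with a rise of 0.55 ± 0.09 (0.00107). In NZW/BXSB it went from 5.84 to 7.72 (median 6.78) to 7.28 to 10.57 (median 8.71), with overlap, and rose by 1.87 ± 0.47 (0.0134).

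Bub1, a checkpoint kinase at the kinetochore, had a median of 4.26 (3.98 to 4.51) without proteinuria and 4.67 (4.35 to 5.67) at onset. Its onset rise of 0.55 ± 0.14 (adjusted p = 0.0294) was lost without onset replicate 3, 4 or 5 or without 23-week non-proteinuric replicate 9, and at 36 weeks it was not called (0.29 ± 0.13). In NZM2410 it rose from 4.43, 4.49, 4.51, 4.74 and 4.87 to 5.15, 5.30, 5.39, 5.48 and 5.63, without overlap, by 0.78 ± 0.11 (0.000504). In NZW/BXSB it rose by 1.41 ± 0.35 (0.0122), from a median of 4.63 to 6.31. Mad2l1, which holds Cdc20 inactive until chromosomes are attached, rose in all 4 comparisons, by 0.49 to 0.80, with the onset call kept in 22 of 27 alternatives and lost without onset replicate 5 (0.173). Ube2c, the ubiquitin-conjugating enzyme of the complex, rose at onset (0.58 ± 0.14, 0.0259, lost without onset replicate 3, 4 or 5), in NZM2410 (0.50 ± 0.10, 0.00298) and in NZW/BXSB (1.22 ± 0.25, 0.00534) and was not called at 36 weeks (0.21 ± 0.13). Its 36-week change minus its NZW/BXSB change was -1.01 ± 0.29 (0.0405), kept in 22 of 36 alternatives. Bub1b, the checkpoint protein BubR1, rose in NZM2410 and NZW/BXSB only among the 4, by 0.31 and 0.64, the first kept in 10 of 19 alternatives.

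Centromere and spindle genes rose in 2 of 7 cases at onset and at 36 weeks, in 4 of 7 in NZM2410 and in 6 of 7 in NZW/BXSB. In NZB/W these were Cenpa, the histone H3 variant that marks centromeres, and Nusap1, a spindle protein that binds microtubules near chromosomes. Nusap1 ranged from 5.78 to 6.29 (median 5.95) without proteinuria and from 6.18 to 8.21 (median 6.84) at onset, with slight overlap, and rose by 1.01 ± 0.22 (adjusted p = 0.00892), a call lost without onset replicate 5. At 36 weeks it rose by 0.73 ± 0.20 (0.00708), and in NZM2410 from 6.97, 7.11, 7.15, 7.21 and 7.37 to 7.56, 7.61, 7.72, 7.87 and 7.88, without overlap, by 0.56 ± 0.09 (0.00106). In NZW/BXSB the median went from 7.07 to 8.39, a rise of 1.29 ± 0.29 (0.00866).

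Cenpa rose by 0.63 ± 0.15 at onset (adjusted p = 0.0154), from a median of 5.69 (5.57 to 5.92) to 6.39 (5.82 to 6.94), a call lost without onset replicate 5. It rose by 0.53 ± 0.14 at 36 weeks (0.00344) and by 1.04 ± 0.24 in NZW/BXSB (0.00932), and was not called in NZM2410 (0.37 ± 0.14). The mitotic motors Kif11, which separates spindle poles, and Kif2c, which shortens microtubules, and the kinetochore protein Cenpf rose in NZM2410 and NZW/BXSB but passed in neither NZB/W comparison. In NZM2410 the call of Cenpf was kept in 8 of 19 alternatives and that of Kif11 in 12 of 18, and in NZW/BXSB that of Kif2c in 15 of 21. Tpx2, which starts spindle microtubules, was called in NZW/BXSB alone (0.53 ± 0.15, 0.0275, lost in 7 of 21 alternatives, 6 of them single arrays left out), and Cenpe, the motor that aligns chromosomes, in none.

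The 3 genes of the midzone and of cell separation all rose at onset, in NZM2410 and in NZW/BXSB, and Prc1 and Birc5 also at 36 weeks. Birc5 (survivin, gene ID 11799), a subunit of the chromosomal passenger complex, ranged from 4.67 to 4.95 (median 4.87) without proteinuria and from 4.97 to 6.33 (median 5.71) at onset. The groups did not overlap, but the rise of 0.81 ± 0.20 (adjusted p = 0.0275) was lost without onset replicate 3, 4 or 5. At 36 weeks it ranged from 4.86 to 6.79 (median 5.84), against 4.59 to 5.08 (median 4.88) at 16 weeks, a rise of 0.94 ± 0.19 (0.000375) kept in every alternative although the groups overlapped. In NZM2410 it went from 5.55, 5.63, 5.68, 5.69 and 5.78 to 6.23, 6.53, 6.72, 6.76 and 7.0, by 0.98 ± 0.12 (0.000279), without overlap. The NZW/BXSB rise was 1.60 ± 0.39 (0.0115). Prc1, which bundles microtubules between the separating chromosomes, rose by 0.44 ± 0.11 (0.0367), 0.36 ± 0.11 (0.0122), 0.53 ± 0.10 (0.00254) and 0.96 ± 0.21 (0.00767) at onset, at 36 weeks, in NZM2410 and in NZW/BXSB. At onset its 6 arrays, from 5.27 to 6.22, all lay above the 11 controls, from 5.10 to 5.25, yet 12 of 27 alternatives lost the call, the one without onset replicate 5 among them. Kif20a, a motor of the midzone, rose at onset (0.38 ± 0.09, 0.0148, lost without onset replicate 5, and flagged as not expressed) and in both other strains. Its NZM2410 call was kept in 7 of 19 alternatives.

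Both genes of chromosome structure were among the larger changes. Mki67 (gene ID 17345), which coats mitotic chromosomes and is the standard marker of dividing cells in tissue, ranged from 6.92 to 7.41 (median 7.16) without proteinuria and from 7.35 to 9.86 (median 8.19) at onset. The groups overlapped, and the rise of 1.10 ± 0.30 (adjusted p = 0.0474) was kept in 6 of 27 alternatives, not among them the one without onset replicate 5 (0.239). At 36 weeks it ranged from 7.22 to 10.06 (median 8.32), against 7.08 to 7.79 (median 7.24), again with overlap, and rose by 1.01 ± 0.29 (0.00818). In NZM2410 levels of 7.95, 8.13, 8.14, 8.17 and 8.43 became 8.70, 8.70, 8.92, 8.93 and 9.14, without overlap, a rise of 0.71 ± 0.11 (0.000671). In NZW/BXSB they went from 7.20 to 8.14 (median 7.81) to 8.19 to 10.40 (median 9.39), also without overlap, by 1.42 ± 0.33 (0.00905). Topoisomerase II alpha (Top2a), which untangles sister chromosomes, rose by 0.58 ± 0.17 at 36 weeks (0.00983), 0.50 ± 0.08 in NZM2410 (0.00126) and 1.57 ± 0.38 in NZW/BXSB (0.0119). At onset its change of 0.63 ± 0.18 was not called (0.0564), with arrays from 4.88 to 6.29 against 4.54 to 5.18.

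**Figure D4:**
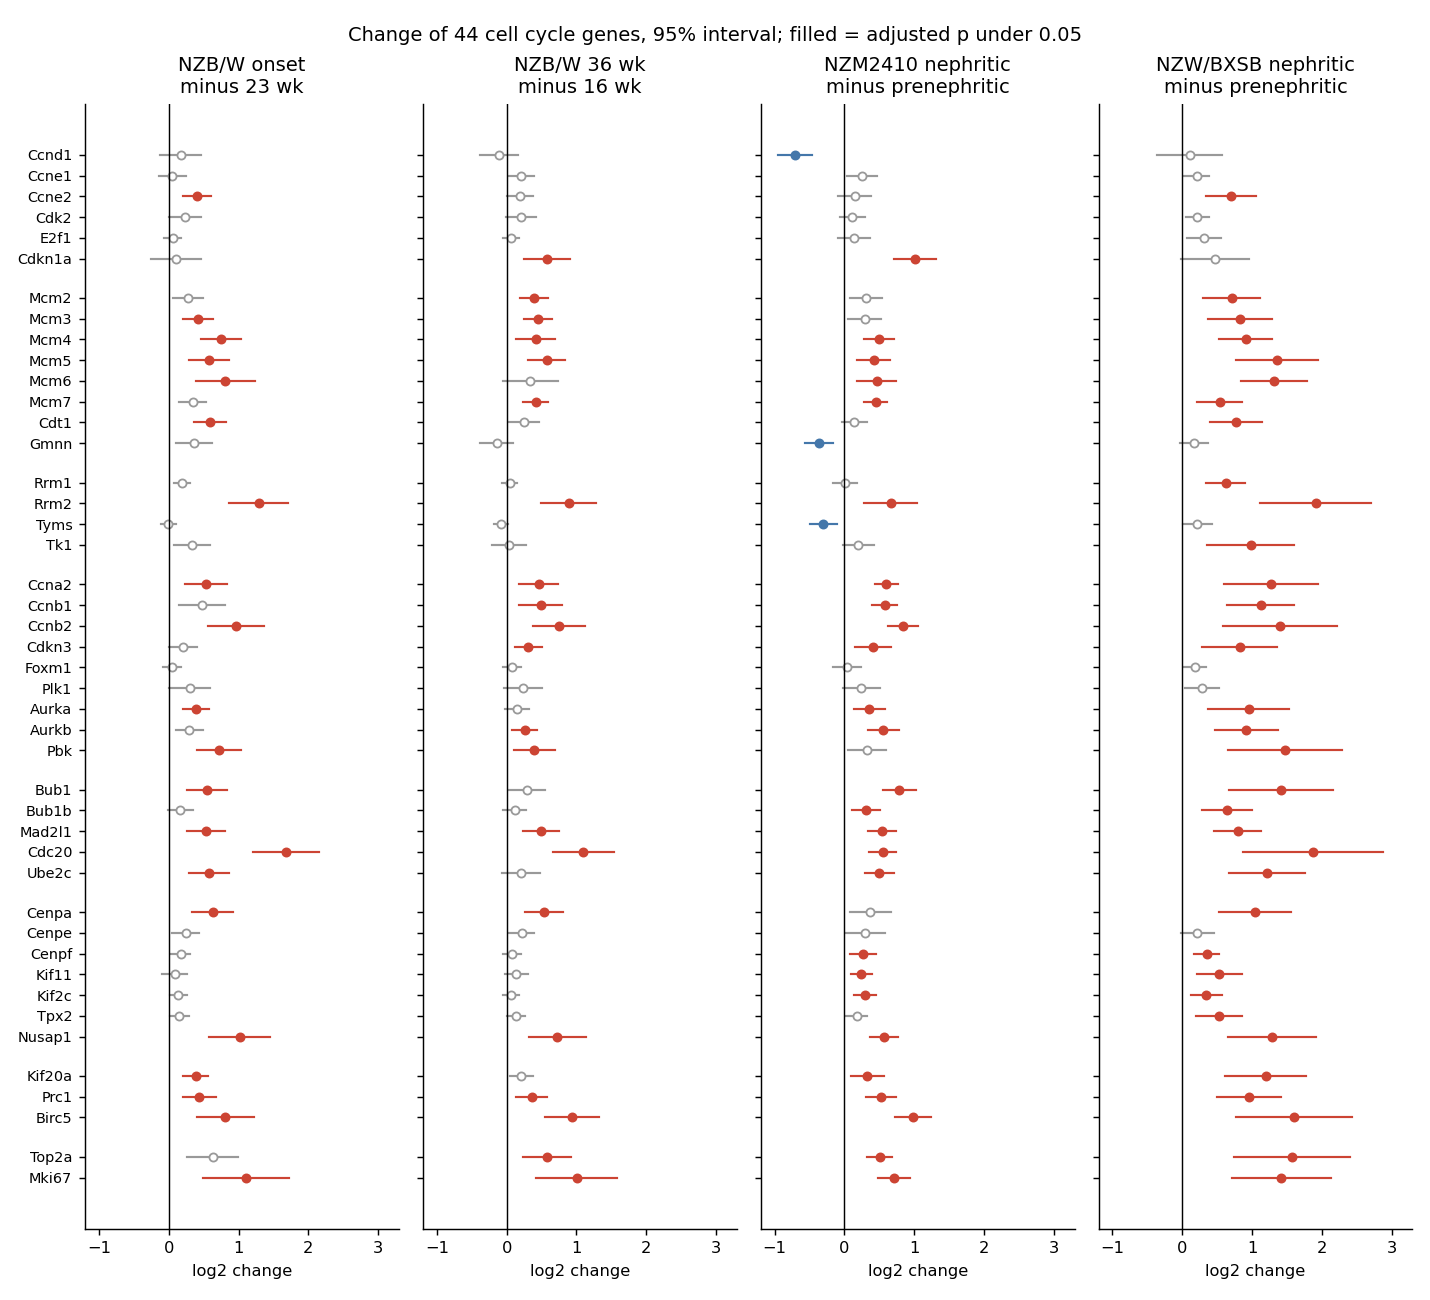
Log2 change with its 95% interval (horizontal axis) of the 44 genes (vertical axis, ordered by role) in the 4 comparisons of diseased with control kidneys. Most points lie to the right of 0, furthest for Rrm2 and Cdc20 in NZW/BXSB, while Ccnd1 in NZM2410 lies at -0.70.

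The strains were set against each other through the differences of their changes. The NZW/BXSB change was the larger one for 43 of 44 genes against 36-week NZB/W, for 39 against onset and for 41 against NZM2410, and these comparisons share the NZW/BXSB arrays. Gene by gene few differences passed. NZB/W at 36 weeks minus NZW/BXSB was called for 3 members, all negative (Mcm6, Rrm1 and Ube2c), where 4.12% of all genes were called negative. NZM2410 minus NZW/BXSB was called for 3, also all negative (Gmnn, Rrm1 and Tyms), against 3.59%. NZB/W minus NZM2410 was called for 0 in the same test, against 1.72% of all genes. With title codes as a random block both comparisons with NZW/BXSB called 0. Single arrays moved these counts too. Without NZW/BXSB nephritic replicate 6 each of the comparisons with NZW/BXSB called 14, and without NZW/BXSB prenephritic replicate 2 or 3 the one with NZB/W called 0.

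Further cell cycle genes, listed with the members' results known, rose more often than they fell. Of 71 measured, 12 rose and none fell at onset, 32 rose and 4 fell at 36 weeks, 31 rose and 4 fell in NZM2410, and 46 rose and 3 fell in NZW/BXSB. Their median changes were 0.22, 0.19, 0.22 and 0.49. Over all genes 1.71%, 11%, 11.4% and 11.4% were called higher, and 0.388%, 15.3%, 13.8% and 8.73% lower, in the same order. Cks1b, a small subunit of the Cdk complexes, rose by 0.98 ± 0.19 (adjusted p = 0.00665), 1.07 ± 0.18 (5.61e-05), 1.14 ± 0.15 (0.000417) and 1.25 ± 0.17 (0.000617) in those comparisons. Anillin (Anln), of the contractile ring, rose by 0.88 ± 0.18, 0.54 ± 0.17, 1.11 ± 0.12 and 1.68 ± 0.32. Those that fell included, at 36 weeks, Rbl2, Wee1 and Spc25, in NZM2410 Rbl2, Ccnd3 and Spc25, and in NZW/BXSB Rbl2 and Cdkn1b. These were named after their values had been seen. Rbl2 encodes p130, which with DREAM keeps cycle genes silent in resting cells, and its changes were -0.48 ± 0.15 (0.0133), -0.31 ± 0.09 (0.0194) and -0.39 ± 0.07 (0.00329). At onset its change was -0.06 ± 0.16.

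Of 13 measured p53 target genes, 8 rose in NZM2410, 4 at 36 weeks, 4 in NZW/BXSB and 0 at onset, and none fell. The list leaves out Cdkn1a. Over all genes, 11.4% were called higher in NZM2410, 11% at 36 weeks, 11.4% in NZW/BXSB and 1.71% at onset. Gdf15, a stress cytokine, rose by 2.08 ± 0.31 in NZM2410 (adjusted p = 0.000744), 0.92 ± 0.26 at 36 weeks (0.00908) and 1.02 ± 0.25 in NZW/BXSB (0.0126). Bbc3, which promotes apoptosis, rose by 0.60 ± 0.11 (0.00249), 0.35 ± 0.08 (0.00231) and 0.37 ± 0.10 (0.0204). At onset the gene with the smallest p was Plk2, at 0.21 ± 0.08 (0.152).

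Markers of other cells moved with the cell cycle genes, and their part in the result was not tested. Over all genes, 1.71% were called higher at onset, 11% at 36 weeks, 11.4% in NZM2410 and 11.4% in NZW/BXSB. Of 18 genes of mononuclear phagocytes, 10 rose at onset, 18 at 36 weeks, 17 in NZM2410 and 18 in NZW/BXSB. Their mean level ranged from 7.32 to 7.88 without proteinuria and from 7.89 to 9.39 at onset, and from 7.29 to 7.74 at 16 weeks and 8.32 to 10.05 at 36 weeks. It ranged from 6.97 to 7.32 and 8.29 to 9.11 before and in NZM2410 nephritis, and from 7.53 to 8.64 and 9.02 to 9.72 in NZW/BXSB, without overlap in any of the 4. By counts of called genes, the lymphocyte lists ranked the comparisons in a different order from the cell cycle genes. Of 11 T cell genes, 0 rose at onset, 9 at 36 weeks, 5 in NZM2410 and 2 in NZW/BXSB, and their mean levels overlapped at onset (5.50 to 6.12 against 5.61 to 5.97). Of 9 B cell genes, 0, 7, 2 and 1 rose. Of 10 plasma cell genes, 0, 9, 6 and 1 rose. In NZW/BXSB the 1 B cell gene and the 1 plasma cell gene are near the share over all genes. The strongest genes of the T, B and plasma cell lists at onset were Thy1 (0.36 ± 0.25), Cd72 (0.98 ± 0.32) and Mzb1 (0.61 ± 0.33), and none was called.

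Genes of kidney cells were counted beside them. Over all genes, 0.388% were called lower at onset, 15.3% at 36 weeks, 13.8% in NZM2410 and 8.73% in NZW/BXSB. Called higher were 1.71%, 11%, 11.4% and 11.4%, in the same order. Of 15 genes of tubular injury, a list that includes Cdkn1a, 4 rose at onset, 15 at 36 weeks, 15 in NZM2410 and 12 in NZW/BXSB. Lcn2, secreted by injured tubules, rose by 2.25 ± 0.53 at onset (adjusted p = 0.0174), 4.04 ± 0.49 at 36 weeks (9.23e-07), 5.16 ± 0.46 in NZM2410 (7.72e-05) and 4.40 ± 0.50 in NZW/BXSB (0.000317). Havcr1, the receptor KIM-1 of injured proximal tubule, rose by 5.58 ± 0.25 in NZM2410 (5.05e-07) and by 1.39 ± 0.27 in NZW/BXSB (0.00398). Of 12 proximal tubule genes none was called lower at onset, while 12 fell at 36 weeks, 9 in NZM2410 and 3 in NZW/BXSB. Thus NZW/BXSB had the highest count of risen cell cycle genes among the 4 and, of the nephritic groups, the lowest count of fallen proximal tubule genes. Of 8 endothelial genes none was called at onset, 1 rose and 1 fell at 36 weeks, 5 fell in NZM2410 and 1 fell in NZW/BXSB. Of 8 mesangial and smooth muscle genes none was called at onset, 2 rose and 2 fell at 36 weeks, 2 rose and 1 fell in NZM2410, and 3 rose in NZW/BXSB. In these lists of 8 genes, counts of 1 or 2 do not stand out from the shares over all genes. Of 4 erythroid genes measured, 1 rose and 1 fell at 36 weeks (Alas2, 1.60 ± 0.42, and Slc4a1, -0.62 ± 0.19), 2 fell in NZM2410, 1 fell in NZW/BXSB and none was called at onset.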

How the data were processed

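RNA from whole kidneys was hybridized to Affymetrix arrays, and the deposited tables, 1 for each of 3 strains, hold log2 expression values per gene made by the authors with RMA, per the submitters' processing notes (version not given). The array type, the probe set definition and the genome build are not given in the sources used here. Every table held 16475 genes and 64 control rows, and every column of values belonged to a sample. Of the gene IDs 16229 matched RefSeq, which also gave the promoters. The values were used as deposited, without a filter. For each table limma (version 3.58.1, R 4.3.3) fitted group means with lmFit and eBayes, and p-values were adjusted by Benjamini-Hochberg over all genes. Errors of changes are standard errors, and those of levels are SD. Differences of changes between strains used the root of the summed variances with Satterthwaite degrees of freedom. The number of arrays limits the precision.

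The members, the other lists and the tests were chosen with earlier results of these data known. Levels by sample are given for the 2 members of each role with the largest mean absolute change over the 4 comparisons of diseased with control kidneys and for Mki67, Cdkn1a and Ccnd1 (17 genes), and of the other lists the 4 called genes with the largest change, or the gene with the smallest p, may be named. Levels of Gmnn, which lies outside that rule, were added after they had been seen. Title codes are the leading part of the sample code in a title, whose meaning is not stated. All prenephritic NZM2410 arrays had the code 2410, the number in the strain name, and 16-week NZB/W replicate 4 had the code NZBW. No code held arrays of both NZM2410 groups, so as a random block the whole prenephritic group there fell together. The fits were tested on simulated data. Alternatives changed the normalization, the filter, the variance model, array weights, blocks, covariates or the arrays used. Not every gene counted in the list of further cell cycle genes is reported here by name.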

Additional observations from a re-analysis of the deposited data

Results flagged for a closer look

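A gap test for a single array far from the rest of its group was run on 126 groups of values, those of the 17 named genes and of the mean over all members, of which chance alone is expected to mark about 1 in 20. It marked Ccne2 (4.43) and Pbk (5.87) as highest in 16-week NZB/W replicate 4, Cdkn1a as highest in onset replicate 5 (8.16), and Mcm6 as lowest in nephritic NZM2410 replicate 4 (8.03). Run in the same way on all 44 members, in 308 groups of values, it marked 20.

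The other results marked are changes that differed between strains in a test of the difference. NZB/W at 36 weeks minus NZW/BXSB was -0.98 for Mcm6, -0.58 for Rrm1 and -1.01 for Ube2c. NZM2410 minus NZW/BXSB was -0.53 for Gmnn, -0.61 for Rrm1 and -0.52 for Tyms. For Rrm1 and Mcm6 both changes compared were upward or near 0, while Gmnn and Tyms fell in NZM2410 and were not called in NZW/BXSB.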

How the results depend on the processing

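No call of a member changed direction under any alternative. Calls kept in every alternative numbered 5 of 21 at 36 weeks, 3 of 21 at onset, 20 of 29 in NZM2410, 19 of 34 in NZW/BXSB and 0 of 3 for each difference between strains. Quantile normalization, centring of arrays, the expression filter, the trend and robust variance model and a fit of only the groups compared kept the counts within 1.5 times, except that quantile normalization called 1 member for NZB/W minus NZM2410. Array weights raised the counts to 32 at 36 weeks, 33 at onset, 3 between 16 and 23 weeks, 2 between onset and 36 weeks, 6 for the 36-week minus the onset change, 3 for NZB/W minus NZM2410, 27 for NZB/W minus NZW/BXSB and 25 for NZM2410 minus NZW/BXSB. They also raised the calls over all genes. Those numbered 6542 at 36 weeks, 2167 at onset and 3697 between 16 and 23 weeks, against 4338, 345 and 3 without weights. The Gapdh covariate gave 6 at 36 weeks, 9 at onset and 19 in NZW/BXSB, and the hybridization controls gave 13 at onset. Title codes as a random block (correlations 0.411, 0.163 and 0.296 in the NZB/W, NZM2410 and NZW/BXSB tables) gave 11 at 36 weeks and 0 for both differences with NZW/BXSB. The cause was not tested. Values within a title code rest on 1 or 2 arrays a group and had no test.

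With 1 array left out at a time, counts ranged from 18 to 25 at 36 weeks, 4 to 23 at onset, 22 to 33 in NZM2410 and 27 to 39 in NZW/BXSB. They ranged from 0 to 0 between 16 and 23 weeks and from 0 to 1 between onset and 36 weeks (1 without onset replicate 5), for the 36-week minus the onset change, and for NZB/W minus NZM2410. For NZB/W minus NZW/BXSB the range was 0 to 14 and for NZM2410 minus NZW/BXSB 3 to 14.

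Replicate numbers were not taken to pair the arrays, since in no 2 groups did every same-numbered pair correlate above 0.1 in its deviations from the group means (range -0.443 to 0.431). Such pairs numbered 8 of 10 for the 23-week non-proteinuric and 36-week groups (median 0.19, against -0.03 for other pairs) and 3 of 6 for the onset comparison (median 0.12, against -0.01). The replicate block is given here only. With it, onset counted 6 members, 36 weeks 25, NZM2410 27 and NZW/BXSB 33, and no other count within a strain changed. Differences between strains were not fitted with the replicate block or the covariates.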
